A study of Sus scrofa with 8 samples.

Results

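The supporting cells of the olfactory epithelium are known for xenobiotic-metabolizing oxidases, reductases, hydrolases and transferases. The enzymes described here come from the families to which these belong. They were taken from a table of read counts per gene as every pig gene whose symbol belongs to the cytochromes P450 of families CYP1 to CYP4, the UDP-glucuronosyltransferases, the glutathione transferases, the cytosolic sulfotransferases, the flavin-containing monooxygenases, the alcohol and aldehyde dehydrogenases, the carboxylesterases, the carbonyl reductases or the epoxide hydrolases. Of 25880 pig genes, 67 met this rule through a symbol paired with their identifier, and another 5 received such a symbol by position and are given apart from the 67. The rule itself uses symbols and no expression value. It takes whole families, so members with other roles are included, and it places no member in a cell type. The tissue was dissected olfactory epithelium from newborn pigs, with 4 CFTR-knockout piglets (numbered 6, 18, 20 and 21) and 4 wild-type piglets (numbered 5, 9, 12 and 23), each giving 1 library. CFTR is an epithelial anion channel whose loss causes cystic fibrosis, and the study set the genotypes side by side to examine the molecular pathology of olfactory loss in that disease. The labels give neither the knockout allele nor the litter. The p-values set the difference between genotypes against the spread between piglets, which were treated as independent. Knockout libraries held 39915150 to 43253395 counts and wild-type libraries 30836904 to 42281883.

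Foreign chemicals are cleared in steps. Oxidases such as the cytochromes P450 and flavin-containing monooxygenases first add or expose a reactive group, using electrons that the reductase POR passes on to the P450s. Reductases, dehydrogenases and epoxide hydrolases act on the carbonyls, aldehydes and epoxides that arise, and transferases then attach glutathione, sulfate or glucuronic acid so that the product can leave the cell. In mammalian nasal mucosa these enzymes are concentrated in sustentacular cells, the supporting cells that surround the sensory neurons, and in the secretory Bowman glands below them. There they break down inhaled toxicants and odorants, and some of them also process retinoids, steroids and fatty acids made by the body.

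CFTR itself was counted in every library and was lower in the knockout. Its level was 6.31, 5.24, 7.43 and 8.37 CPM (the count per 1000000 reads of the library, scaled between libraries by TMM) in knockout piglets 6, 18, 20 and 21, against 56.6, 34.3, 34.0 and 36.6 CPM in wild-type piglets 5, 9, 12 and 23. The groups did not overlap, and the log2 fold change was -2.56 ± 0.21 (SE), with an adjusted p of 0.0121 in edgeR's quasi-likelihood test after Benjamini-Hochberg adjustment over 17175 genes. The adjusted p was 0.122 without knockout piglet 6 and 0.0544 without knockout piglet 20. Knockout piglet 18 stood apart from the other libraries. In it, stromal and bone markers (17 matched) summed to 48108 CPM, against 2460 to 3506 CPM in the other knockout piglets and 2892 to 6888 CPM in wild-type piglets. Reads of the Y-linked pair EIF1AY and KDM5D were found in 2 libraries, those of wild-type piglets 9 and 12 (1388 and 1640 reads in sum), and in no knockout library, which bears on every value set between the genotypes. With these reads as a covariate the CFTR log2 fold change was -2.77, and no enzyme was called by edgeR. In bulk tissue, fewer cells of a type and less RNA per cell cannot be told apart.

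Among the 67 members, a small number made up most of the measured level. Levels of different genes were compared per exon length, as counts per kilobase of exon in a library scaled as CPM (RPKM), and in this measure 2 members, CBR2 and CYP2A19, held 53.5% of the summed level of the 67, and the first 5 held 71.6%. CBR2, a carbonyl reductase that reduces aldehydes and ketones, averaged 1021 ± 259 RPKM in knockout and 916 ± 155 RPKM in wild-type piglets (SD, n = 4 each). CYP2A19, the pig member of the CYP2A subfamily that oxidizes small aromatic compounds such as coumarin and skatole, averaged 806 ± 105 RPKM in knockout and 896 ± 143 RPKM in wild-type piglets. These ranked 24th and 26th among all 25880 genes by mean RPKM. EPHX1, the microsomal epoxide hydrolase that opens reactive epoxides, followed with 286 ± 44.6 RPKM in knockout and 267 ± 25.6 RPKM in wild-type piglets. CYP2F1, a P450 of airway cells known for activating naphthalene, was at 161 ± 49.2 RPKM in knockout and 219 ± 68.7 RPKM in wild-type piglets. The next in order were MGST3, a microsomal glutathione transferase, with 149 ± 24.1 RPKM in knockout and 149.6 ± 21.4 RPKM in wild-type piglets, and CYP1A2, an aromatic amine oxidase that the aryl hydrocarbon receptor induces, with 98.0 ± 45.6 RPKM in knockout and 129 ± 65.8 RPKM in wild-type piglets. CBR2 and CYP2A19 overlapped across the 8 libraries, and so did MGST3 and CYP1A2. CYP2F1 lay above EPHX1 in wild-type piglet 23 and below MGST3 in knockout piglet 6. The order within each of these pairs is therefore not fixed by these data, whereas EPHX1 lay below CBR2 and CYP2A19 in every library.

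**Figure D1:**
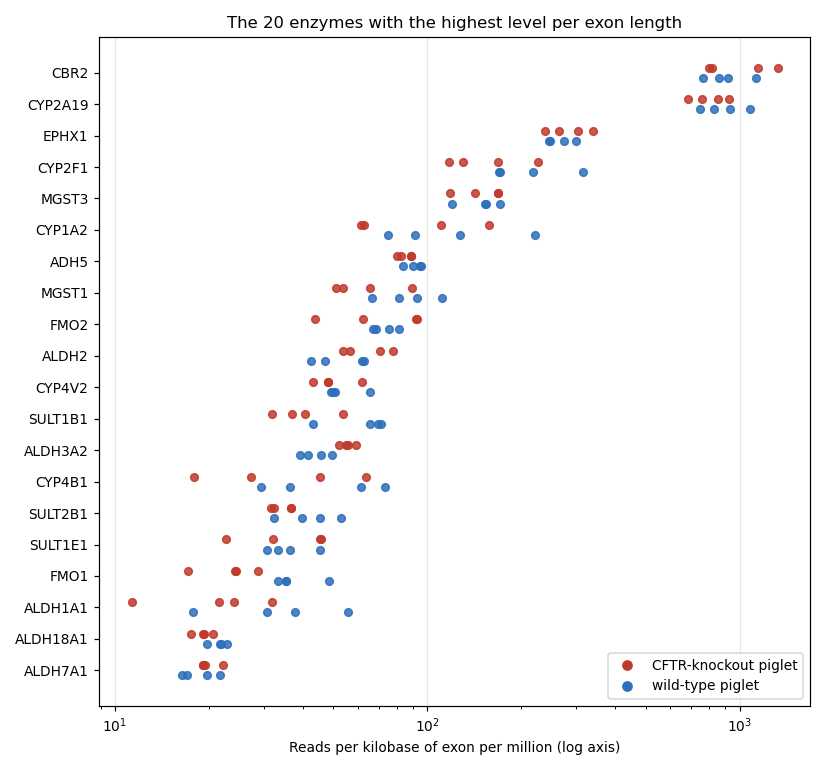
Level per exon length of the 20 members with the highest mean, in RPKM on a log axis, with 1 point per piglet (knockout above, wild type below). CBR2 and CYP2A19 stand at the top with group means between 806 and 1021 RPKM, EPHX1 follows, and knockout and wild-type points overlap for all but ALDH3A2 and FMO1.

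By mean abundance, 16 of the 67 members had at least 100 CPM, 22 had 10 to 100 CPM, 17 had 1 to 10 CPM and 12 had less than 1 CPM. Together the 67 took 0.755% to 1.12% of all reads in knockout libraries and 1.001% to 1.16% in wild-type libraries, the lowest being knockout piglet 18. Some enzymes that are abundant in liver were close to the limit of detection. CYP2E1, the ethanol-oxidizing P450, had 2 to 11 reads per library, and SULT2A1, the liver sulfotransferase for steroids, had 1 read in knockout piglet 6 and 0 in the other 7 libraries. A count of 0 allows up to 3 reads, which is 0.0683 to 0.0836 CPM in knockout and 0.0698 to 0.0949 CPM in wild-type libraries, for counting error only. ADH4, an alcohol dehydrogenase, had 0 reads in all 4 knockout libraries and 1, 2, 2 and 2 in the wild-type libraries, which is within that limit in both groups.

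By family, among the 67 members named by identifier, the P450s of CYP2 and the carbonyl reductases were the most abundant. These 67 include no CYP3 gene and no UDP-glucuronosyltransferase. Of 25880 pig genes 14857 had a symbol by identifier, and genes without one are not in the sums. The 5 genes named by position are not in them either. Summed over its 8 members, CYP2 reached 977 ± 113 RPKM in knockout and 1126 ± 186 RPKM in wild-type piglets (SD, n = 4 each). The 4 carbonyl reductases summed to 1027 ± 259 RPKM in knockout and 923 ± 154 RPKM in wild-type piglets. Epoxide hydrolases (4 members), aldehyde dehydrogenases (17) and glutathione transferases (10) each lay between 212 and 350 RPKM in every knockout library and between 250.5 and 307 RPKM in every wild-type library. Sulfotransferases (8 members) summed to 125, 102, 136 and 102 RPKM in knockout piglets 6, 18, 20 and 21, against 155, 153, 129 and 144 RPKM in wild-type piglets 5, 9, 12 and 23. In this family only knockout piglet 20 reached above the lowest wild-type value. No family sum separated the 2 genotypes, and no test was run on these sums.

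**Figure D2:**
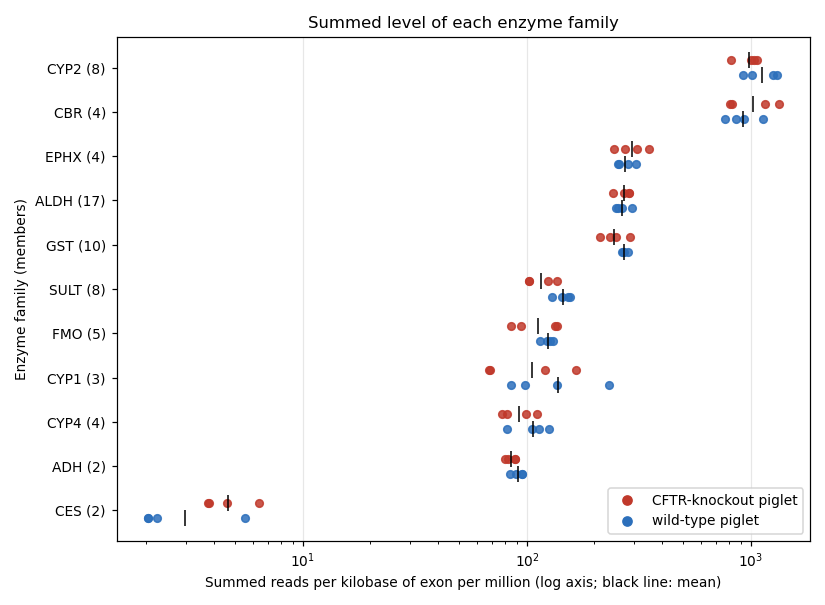
Summed level of each family over the 67 members named by identifier, in RPKM on a log axis. Each piglet is 1 point (knockout above, wild type below), with a black line at the group mean and the number of members in parentheses. Genes named by position are left out, among them CES1 (mean 34.8 RPKM in knockout, 34.9 RPKM in wild type) and UGT1A6 (17.2 RPKM in both). CYP2 and CBR lie near 1000 RPKM, and the points of the 2 genotypes overlap in every family.

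Enzyme expression in the knockout was compared with wild type in the fit across all genes, which asked whether loss of CFTR comes with a difference in this set of enzymes. Of the 67 members, 58 passed edgeR's filter on low counts. None was called at an adjusted p of 0.05 by edgeR (adjusted p 0.326 to 0.999), where CFTR was the only one of 17175 genes called (0.00582%). At an unadjusted p under 0.05 there were 7 members, which is 12.1% of those tested, against 11.2% of all genes. Of these, 4 were higher and 3 lower in the knockout, where the shares over all genes were 5.4% and 5.8%. DESeq2 called 3 of the 57 members for which it gave an adjusted p (5.26%), against 1.31% of all genes with one. FMO5 was the 1 called higher (0.502% of all genes) and FMO1 and ALDH16A1 the 2 called lower (0.806%). With sample quality weights limma called 0 members, against 0.064% of all genes (0.0175% higher and 0.0466% lower). The 4 knockout values lay apart from the 4 wild-type values in 5 members, 8.62% of those tested, against 5.81% of all genes. They were higher in 3 members and lower in 2, against 2.45% and 3.36% of all genes. All 5 had a mean of at least 1 CPM, a range in which the groups lay apart in 5.97% of genes. The median log2 fold change was -0.02 over the 58 members, with 26 above 0 and 32 below, and 0.01 over all genes tested. All 58 fitted fold changes were smaller than 2-fold, and 36 were smaller than 1.25-fold. These are point estimates. On the log2 scale the standard error was 1.36 for SULT1C3 and 1.08 for SULT1C2, so a small estimate does not bound the change there.

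**Figure D3:**
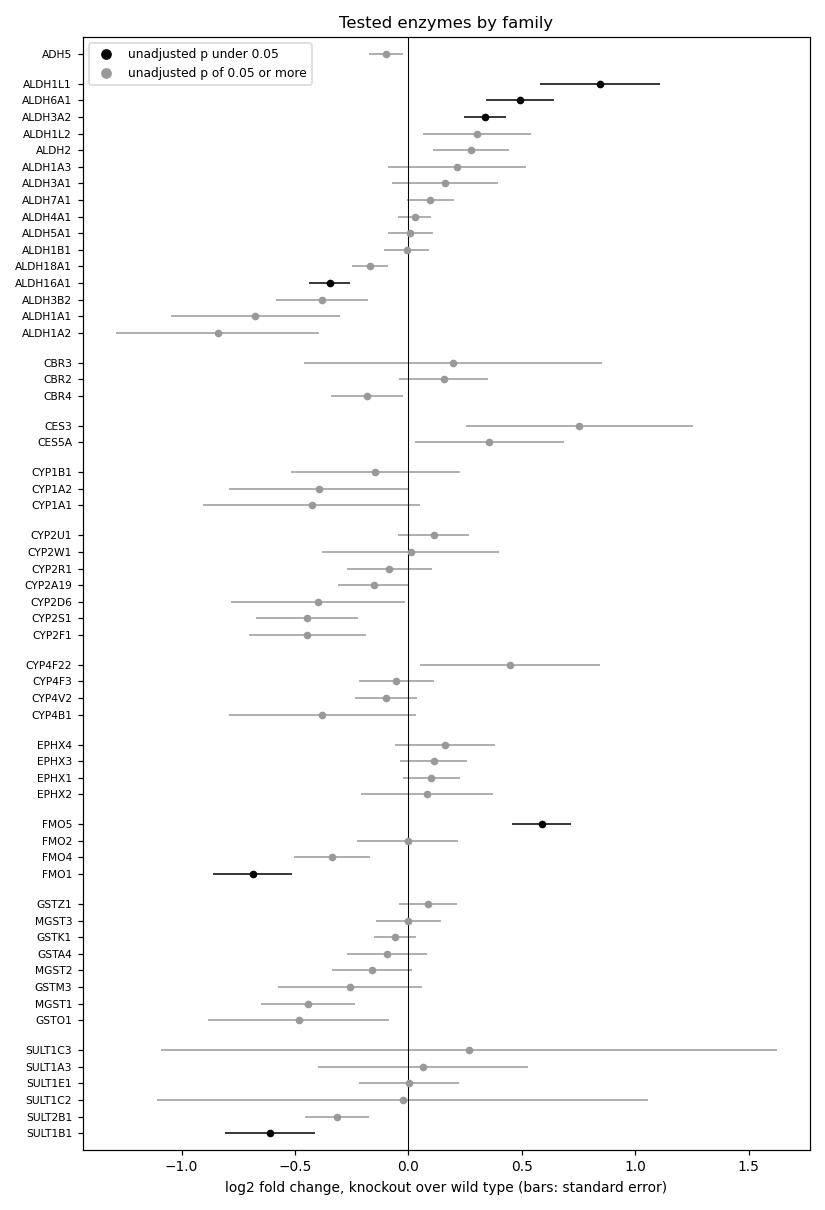
Log2 fold change of knockout over wild type with its standard error for the 58 tested members, grouped by family; black marks an unadjusted p under 0.05. Estimates run from -0.84 for ALDH1A2, which was -0.11 without wild-type piglet 5, to 0.84 for ALDH1L1, and none passed the adjusted threshold in edgeR.

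Among the oxidases, the flavin-containing monooxygenases held the smallest p-values in both directions. These enzymes oxidize nitrogen and sulfur atoms in amines and thiols. FMO5, a member that mainly inserts oxygen next to carbonyl groups, was 103, 80.1, 82.1 and 79.8 CPM in knockout piglets 6, 18, 20 and 21, against 67.9, 48.4, 61.5 and 52.2 CPM in wild-type piglets 5, 9, 12 and 23. Every knockout value was above every wild-type value, with a log2 fold change of 0.59 ± 0.13 (SE; adjusted p in edgeR = 0.326, DESeq2 adjusted p = 0.0129). FMO1, a broad drug oxidase, was 73.0, 73.7, 86.6 and 51.4 CPM in knockout piglets, against 146, 106, 106 and 100.1 CPM in wild-type piglets in the same order. Every knockout value was below every wild-type value, with a log2 fold change of -0.69 ± 0.17 (adjusted p in edgeR = 0.334, DESeq2 adjusted p = 0.0252). FMO1 (chromosome 9, 63812103 to 63895080, plus strand, build not given) lies beside FMO4, and its span contains that of FMO2 (63812103 to 63852081, same strand). FMO1 shares 386 exon bases, 12.8% of its exons, with FMO2, so reads in that stretch cannot be assigned to 1 of the pair. FMO5 is on chromosome 4. FMO2, the abundant lung member, was 222, 469.8, 468 and 316 CPM in knockout piglets and 338, 347, 382 and 411 CPM in wild-type piglets. Its knockout values ran both below and above the whole wild-type range, and the log2 fold change was 0.00 ± 0.22 (edgeR adjusted p = 0.997). FMO4, a minor member, was 10.5, 16.8, 13.8 and 12.9 CPM in knockout piglets and 21.02, 15.7, 14.8 and 16.7 CPM in wild-type piglets, with a log2 fold change of -0.34 ± 0.17 that did not pass (edgeR adjusted p = 0.466).

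Of the 15 P450 members 14 were tested and none reached an unadjusted p under 0.05. CYP2A19 (ENSSSCG00000002993, chromosome 6, 49053993 to 49064190, minus strand, build not given) was 4086, 3026, 3361 and 3774 CPM in knockout piglets 6, 18, 20 and 21, against 3289, 3668, 4763 and 4116 CPM in wild-type piglets 5, 9, 12 and 23. The groups overlapped, and the log2 fold change was -0.15 ± 0.16 (edgeR adjusted p = 0.697). CYP2F1, its neighbour on chromosome 6, was 334, 301, 583 and 434 CPM in knockout piglets, against 437, 439, 562 and 812 CPM in wild-type piglets. Knockout piglets 6, 18 and 21 lay below all wild-type piglets and piglet 20 lay among them, with a log2 fold change of -0.45 ± 0.26 (adjusted p in edgeR = 0.510). CYP4V2, a fatty acid hydroxylase, averaged 266 ± 41.9 CPM in knockout and 284 ± 41.9 CPM in wild-type piglets. CYP2S1, an epithelial P450, averaged 6.52 ± 1.33 CPM in knockout and 8.87 ± 2.28 CPM in wild-type piglets (log2 fold change -0.45 ± 0.22, edgeR adjusted p = 0.468). The other tested members of CYP2 were CYP2U1, CYP2R1, CYP2W1 and CYP2D6, each under 40 CPM in every library, with log2 fold changes of -0.40 to 0.11. Of the CYP2W1 exons, 30.8% of the bases also belong to C7orf50 on the other strand. That gene had a mean count of 822 reads, against 58 to 169 for CYP2W1, and it is not known here whether reads were counted by strand. Near-identical P450 genes can share reads, and how the counting treated such reads is not stated, so values of single P450s are uncertain.

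**Figure D4:**
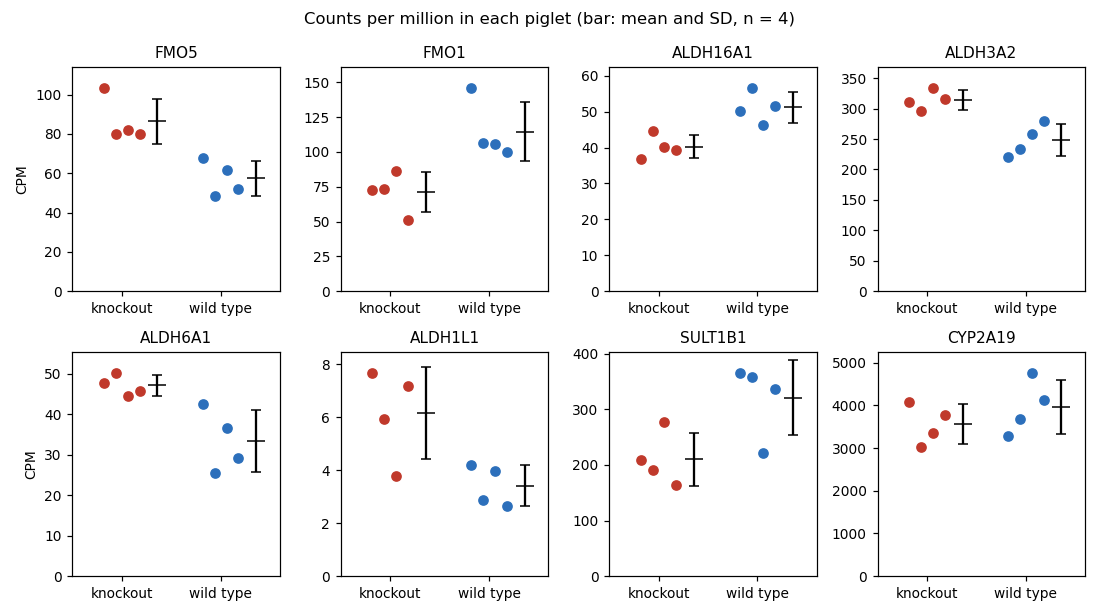
CPM in each piglet for the 7 members with an unadjusted p under 0.05 and for CYP2A19, with knockout left of wild type and the mean and SD (n = 4) beside the points. The genotypes do not overlap in FMO5, FMO1, ALDH16A1, ALDH3A2 and ALDH6A1, and they do in ALDH1L1, SULT1B1 and CYP2A19.

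The aldehyde dehydrogenases, which oxidize aldehydes to acids, had 4 of 16 tested members at an unadjusted p under 0.05, which is 25.0%, against 11.2% of all genes. Of these, 3 were higher and 1 lower in the knockout (5.4% and 5.8% of all genes), and none was called by edgeR over all genes. ALDH3A2, the fatty aldehyde dehydrogenase, was 310.4, 295, 334 and 315 CPM in knockout piglets 6, 18, 20 and 21, against 221, 234, 257 and 280.1 CPM in wild-type piglets 5, 9, 12 and 23. The groups did not overlap, and the log2 fold change was 0.34 ± 0.09 (SE, edgeR adjusted p = 0.355, DESeq2 adjusted p = 0.0552). ALDH6A1, a mitochondrial enzyme of valine and thymine breakdown, was 47.8, 50.2, 44.6 and 45.7 CPM in knockout piglets, against 42.6, 25.5, 36.4 and 29.2 CPM in wild-type piglets. All knockout values were above the highest wild-type value, that of piglet 5, with a log2 fold change of 0.49 ± 0.15 (adjusted p in edgeR = 0.372). ALDH1L1, a cytosolic folate enzyme, averaged 6.15 ± 1.74 CPM in knockout and 3.42 ± 0.766 CPM in wild-type piglets (SD, n = 4 each). Knockout piglet 20, at 3.78 CPM, lay within the wild-type range, and the log2 fold change was 0.84 ± 0.26 (edgeR adjusted p = 0.372). ALDH16A1, a member that lacks the catalytic residue in mammals, was 36.9, 44.5, 40.0 and 39.4 CPM in knockout piglets, against 50.3, 56.6, 46.3 and 51.6 CPM in wild-type piglets. The knockout values were all lower, with a log2 fold change of -0.35 ± 0.09 (adjusted p in edgeR = 0.341, DESeq2 adjusted p = 0.0442). ALDH16A1 shares 551 exon bases, 13.8% of its exons, with PIH1D1 on the other strand, and it is not known here whether reads were counted by strand.

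Several other aldehyde dehydrogenases were closer between the genotypes. ALDH2, the mitochondrial enzyme for acetaldehyde, averaged 324 ± 57.5 CPM in knockout and 267 ± 51.9 CPM in wild-type piglets (SD, n = 4 each), for a log2 fold change of 0.28 ± 0.17 (adjusted p in edgeR = 0.526), which was 0.54 with the Y-linked covariate. ALDH18A1, which makes the precursor of proline, averaged 71.2 ± 4.84 CPM in knockout and 80.1 ± 5.02 CPM in wild-type piglets (log2 fold change -0.17 ± 0.08, edgeR adjusted p = 0.451). ALDH4A1, of proline breakdown, ALDH5A1, of the breakdown pathway of the transmitter GABA, and ALDH1B1 had log2 fold changes of 0.03 ± 0.07, 0.01 ± 0.10 and -0.01 ± 0.10. The alcohol dehydrogenase ADH5, which clears formaldehyde bound to glutathione, varied little, with 161, 149.8, 146 and 162 CPM in knockout piglets and 164, 173, 153 and 174 CPM in wild-type piglets. Its groups overlapped, with a log2 fold change of -0.10 ± 0.07 (adjusted p in edgeR = 0.588).

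The carbonyl reductase CBR2 (ENSSSCG00000031851, chromosome 12, 973786 to 976635, plus strand, build not given) was 2269.9, 1394, 1367 and 1963 CPM in knockout piglets 6, 18, 20 and 21, against 1466, 1305, 1931 and 1576 CPM in wild-type piglets 5, 9, 12 and 23. Knockout piglets 6 and 21 were the highest of the 8 libraries and the other 2 were among the lowest, with a log2 fold change of 0.16 ± 0.20 (adjusted p in edgeR = 0.757). CBR1 and CBR3, the broadly expressed carbonyl reductases of other mammalian tissues, had at most 24 and 40 reads in any library. The 4 epoxide hydrolases had log2 fold changes of 0.08 to 0.16, and none reached an unadjusted p under 0.05. EPHX1 was 498, 391, 434 and 558 CPM in knockout piglets, against 407, 451, 404 and 493 CPM in wild-type piglets, and the groups overlapped (log2 fold change 0.10 ± 0.13, edgeR adjusted p = 0.756). Of the EPHX1 exons, 43.4% of the bases also belong to TMEM63A on the other strand, whose mean count was 878 reads against 14019 or more for EPHX1 in every library. The carboxylesterase CES3, which hydrolyses esters, averaged 6.02 ± 1.95 CPM in knockout and 3.56 ± 2.90 CPM in wild-type piglets (SD, n = 4 each). Wild-type piglet 23, at 7.82 CPM, lay among the knockout values, and the log2 fold change was 0.75 ± 0.50 (edgeR adjusted p = 0.551). It was 1.49 without that piglet and 0.19 with the Y-linked reads as a covariate.

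Among the conjugating enzymes, 1 of 14 tested members had an unadjusted p under 0.05, against 11.2% of all genes. This was SULT1B1, a sulfotransferase for small phenols and thyroid hormones, with 209.8, 190.3, 277 and 164 CPM in knockout piglets 6, 18, 20 and 21, against 366, 359, 222 and 337 CPM in wild-type piglets 5, 9, 12 and 23. Wild-type piglet 12 lay within the knockout range and the other 3 wild-type piglets above it, with a log2 fold change of -0.61 ± 0.20 (SE; adjusted p in edgeR = 0.386, DESeq2 adjusted p = 0.110). SULT2B1, which sulfates cholesterol, averaged 43.1 ± 3.30 CPM in knockout and 53.6 ± 10.9 CPM in wild-type piglets (SD, n = 4 each), for a log2 fold change of -0.31 ± 0.14 (adjusted p in edgeR = 0.448), which was -0.08 with the Y-linked covariate. SULT1E1, the estrogen sulfotransferase, which lies near SULT1B1 on chromosome 8, averaged 138 ± 42.2 CPM in knockout and 138 ± 24.0 CPM in wild-type piglets, and its log2 fold change was 0.00 ± 0.22. The 8 tested glutathione transferases had log2 fold changes of -0.48 to 0.09. Of the MGST2 exons, 60.1% of the bases also belong to MAML3 on the other strand. That gene had a mean count of 1248 reads, against 275 to 495 for MGST2, so the MGST2 values are uncertain. MGST1, the microsomal transferase that protects membranes from peroxides, was 54.6, 57.6, 70.2 and 96.1 CPM in knockout piglets, against 120.2, 87.5, 71.3 and 99.8 CPM in wild-type piglets. The ranges overlapped through knockout piglet 21, with a log2 fold change of -0.44 ± 0.21 (adjusted p in edgeR = 0.455). MGST3 was 193, 135, 162 and 192 CPM in knockout piglets and 137, 176, 195 and 175 CPM in wild-type piglets, with a log2 fold change of 0.00 ± 0.14 (adjusted p in edgeR = 0.999). GSTA4, which conjugates aldehydes from oxidized lipids, had -0.09 ± 0.18 and GSTK1, of mitochondria and peroxisomes, -0.06 ± 0.09.

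For the 5 genes that received a symbol by position, the names are less certain. UGT1A6, a glucuronosyltransferase for phenols, was the only UDP-glucuronosyltransferase named here. It had 210.2, 136, 182 and 203 CPM in knockout piglets 6, 18, 20 and 21, against 185, 178, 149 and 219.8 CPM in wild-type piglets 5, 9, 12 and 23, which overlapped (log2 fold change 0.00 ± 0.16). CES1, the broad carboxylesterase, averaged 203 ± 76.5 CPM in knockout and 203 ± 35.2 CPM in wild-type piglets (SD, n = 4 each). ALDH9A1, which acts in carnitine synthesis, had a log2 fold change of -0.23 ± 0.13 and ALDH3B1, a lipid aldehyde dehydrogenase, -0.33 ± 0.20, with edgeR adjusted p-values of 0.505 and 0.518. CYP2C42 had at most 8 reads in any library and was not tested.

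Several members differed far more between piglets than between genotypes. Of the 55 tested members with a mean of at least 1 CPM, 13 had a highest library less than 1.5 times the lowest, and in 6 the highest was at least 4 times the lowest. SULT1C3, a sulfotransferase encoded beside SULT1C2 and SULT1C4 on chromosome 3, had the widest range, 74.9-fold. It was 0.319, 20.9, 7.73 and 0.804 CPM in knockout piglets 6, 18, 20 and 21, and 13.4, 10.5, 0.532 and 0.279 CPM in wild-type piglets 5, 9, 12 and 23. Thus 2 piglets of each genotype were at 7.73 CPM or above and 2 were below 1 CPM. SULT1C2 was 2.48, 0.251, 0.274 and 0.213 CPM in the knockout piglets and 0.144, 0.317, 2.56 and 0.256 CPM in the wild-type piglets. Knockout piglet 6 and wild-type piglet 12, with the higher SULT1C2, were both among the piglets with low SULT1C3. In reads, SULT1C2 had 109 and 106 in these 2 piglets and 6 to 12 in the rest, so it is close to the floor outside them. The log2 fold change was 0.27 ± 1.36 for SULT1C3 and -0.03 ± 1.08 for SULT1C2. That of SULT1C3 was -1.06 without knockout piglet 18 and 0.97 without wild-type piglet 5, and that of SULT1C2 was -1.73 without knockout piglet 6 and 1.76 without wild-type piglet 12.

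**Figure D5:**
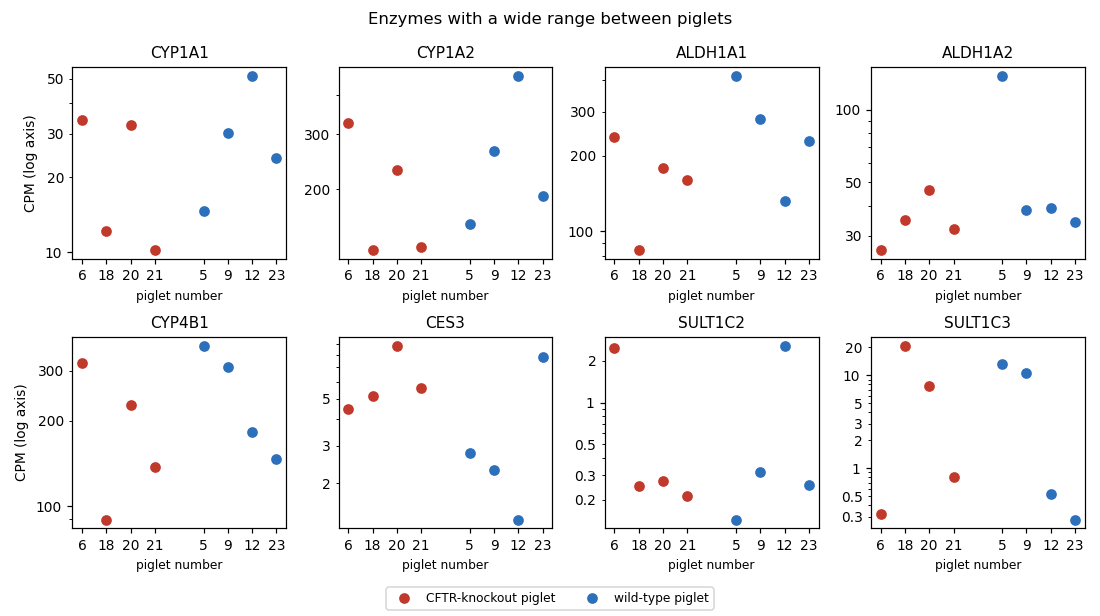
CPM on log axes in each of the 8 piglets. Shown are the 6 tested members with a mean of at least 1 CPM and at least a 4-fold range, with CYP1A2 and SULT1C2. SULT1C2, with a 17.8-fold range, had a mean under 1 CPM. CYP1A1 and CYP1A2 have the same 4 highest piglets, SULT1C3 falls into high and low piglets within each genotype, and ALDH1A2 is high in wild-type piglet 5 alone.

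The aryl hydrocarbon receptor targets CYP1A1 and CYP1A2, neighbours on chromosome 7, were high in the same piglets. CYP1A1 was 34.2, 12.2, 32.4 and 10.2 CPM in knockout piglets 6, 18, 20 and 21, against 14.6, 30.1, 51.1 and 23.9 CPM in wild-type piglets 5, 9, 12 and 23. CYP1A2 was 327, 128, 229.7 and 131 CPM in the knockout and 155, 265, 461 and 190.1 CPM in the wild-type piglets. Both genes were highest in wild-type piglet 12 and low in knockout piglets 18 and 21 and wild-type piglet 5, and the genotypes overlapped. Their log2 fold changes were -0.43 ± 0.48 and -0.39 ± 0.40 (SE, edgeR adjusted p = 0.721 and 0.691). With the Y-linked reads as a covariate the estimates were 0.21 for CYP1A1 and 0.24 for CYP1A2. CYP1B1, the other member of the family, was 20.5 to 37.5 CPM in knockout and 16.6 to 56.0 CPM in wild-type piglets, and its highest value was in piglet 5, where CYP1A1 was low.

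The retinaldehyde dehydrogenases, which make retinoic acid, were also uneven. ALDH1A1 was 238, 84.3, 179 and 160.4 CPM in knockout piglets 6, 18, 20 and 21, against 415, 282, 133 and 228 CPM in wild-type piglets 5, 9, 12 and 23. The ranges overlapped through wild-type piglets 12 and 23, and the log2 fold change was -0.68 ± 0.37 (edgeR adjusted p = 0.501). ALDH1A2 ranged over 26.2 to 46.7 CPM in the knockout piglets, against 34.4 to 39.1 CPM in wild-type piglets 9, 12 and 23 and 138 CPM in wild-type piglet 5. Its log2 fold change was -0.84 ± 0.45 with all piglets and -0.11 without wild-type piglet 5. ALDH1A3 was 16.8 to 48.0 CPM in knockout and 22.9 to 42.4 CPM in wild-type piglets. CYP4B1, a P450 of airway epithelium, was 319, 89.9, 227 and 137 CPM in knockout piglets, against 368, 308, 182 and 147 CPM in wild-type piglets, and overlapped (log2 fold change -0.38 ± 0.41). Values for ALDH1A1 and CYP4B1 were lowest of all 8 libraries in knockout piglet 18.

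The most extreme values were not spread evenly over the libraries. Knockout piglet 18 had the lowest value of the 8 libraries in 14 of the 55 members with at least 1 CPM, and wild-type piglet 5 had the highest in 14. With both of these piglets left out the log2 fold changes were 0.70 for FMO5, -0.57 for FMO1, 0.31 for ALDH3A2, 0.59 for ALDH6A1 and -0.42 for ALDH16A1, with 0 members called by edgeR. Of 18 listed sustentacular markers CBR2 is itself an enzyme of the set, and the 14 others that matched summed to 1938 to 2445 CPM in knockout and 2203 to 2651 CPM in wild-type piglets, and 9 of 13 tested had a log2 fold change below 0 (median -0.43), 4 of them at an unadjusted p under 0.05 and none called by edgeR. Over all genes 11.2% had such a p, 5.4% higher and 5.8% lower in the knockout. The keratin KRT8 averaged 556 ± 57.3 CPM in knockout and 748 ± 166 CPM in wild-type piglets (SD, n = 4 each), whereas GPX6, an olfactory glutathione peroxidase, averaged 548 ± 170.4 CPM in knockout and 534 ± 151 CPM in wild-type piglets. HES5 averaged 0.220 CPM in knockout and 0.0856 CPM in wild-type piglets, the lowest of these markers. Bowman gland markers (15 of 16 matched) summed to 1798 to 2931 CPM in knockout and 1079 to 3018 CPM in wild-type piglets, with 7 of 14 tested above 0, and 3 higher and 1 lower at an unadjusted p under 0.05. Mature neuron markers were above 0 in 13 of 15 tested (median log2 fold change 0.19), with 4 higher and 1 lower at such a p. Glia markers were below 0 in 8 of 10 (median -0.37), with 1 higher and 2 lower. Respiratory secretory markers were below 0 in 6 of 8 (median -0.36), with 2 lower. In both the groups did not overlap, as in 5.81% of all genes, 3.36% with the knockout lower. Markers of horizontal basal cells were below 0 in 7 of 11 (median -0.03), with 1 lower. The groups also lay apart in 1 sustentacular, 1 glia and 1 horizontal basal marker, each lower in the knockout. They lay apart in 1 Bowman gland and 1 mature neuron marker, each higher, against 2.45% of all genes. Counted list by list, DESeq2 called 1 Bowman gland, 1 glia, 1 respiratory secretory and 1 horizontal basal marker, against 1.31% of all genes. It called 0 sustentacular and 0 mature neuron markers. With limma 1 glia and 1 horizontal basal marker were called, again counted list by list, against 0.064% of all genes. The part of any of these lists in the enzyme values was not tested. Of the 12 liver markers, 8 had a mean below 0.1 CPM over the 8 libraries, with APOB, APOA2 and FGA at 0 reads in every library, whereas APOA1 averaged 111 CPM in knockout and 138 CPM in wild-type piglets.

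The partners of the enzymes were given by lists of the pathway. Of 16 tested regulators of xenobiotic metabolism none had an unadjusted p under 0.05, with 12 above 0 and a median log2 fold change of 0.07. The aryl hydrocarbon receptor AHR averaged 57.9 ± 4.92 CPM in knockout and 58.8 ± 9.10 CPM in wild-type piglets (SD, n = 4 each), and NFE2L2, the oxidative stress regulator NRF2, averaged 359 ± 44.4 CPM in knockout and 339 ± 34.3 CPM in wild-type piglets. The nuclear receptors NR1I2 and NR1I3, which sense drugs in the liver, were below 0.1 CPM on average in both groups. ARNT, the partner of AHR, reached 308 CPM in knockout piglet 18, against 55.8 to 79.4 CPM across the other 7 libraries, and its log2 fold change of 0.84 ± 0.53 was -0.16 without that piglet. ARNT2 had 0.24 ± 0.13 and FOXA1, an epithelial transcription factor, -0.80 ± 0.66, which was 0.11 without wild-type piglet 5. Of 15 tested electron donors and haem enzymes 2 had an unadjusted p under 0.05 (13.3%, against 11.2% of all genes). HMOX2, the constitutive haem oxygenase, was 300.1, 200.9, 194 and 250.4 CPM in knockout piglets, against 128, 165, 180.0 and 173 CPM in wild-type piglets, which did not overlap, as in 5.81% of all genes (log2 fold change 0.55 ± 0.16, edgeR adjusted p = 0.370). CYB5A, the cytochrome b5 that assists P450s, averaged 318 ± 36.2 CPM in knockout and 378 ± 23.7 CPM in wild-type piglets (log2 fold change -0.25 ± 0.10), and BLVRB had -0.35 ± 0.26. POR, which supplies electrons to all microsomal P450s, averaged 754 ± 153 CPM in knockout and 715 ± 85.7 CPM in wild-type piglets.

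Among 11 tested P450s outside families CYP1 to CYP4, 3 had an unadjusted p under 0.05 (27.3%), against 11.2% of all genes, with 5.4% higher and 5.8% lower. CYP27A1, a mitochondrial sterol hydroxylase, was 119, 91.5, 93.5 and 99.4 CPM in knockout piglets 6, 18, 20 and 21, against 61.6, 63.4, 70.2 and 88.8 CPM in wild-type piglets 5, 9, 12 and 23. These did not overlap, with a log2 fold change of 0.51 ± 0.13 (adjusted p in edgeR = 0.347). The groups lay apart in 2 of the 11 (18.2%), against 5.81% of all genes, 2.45% higher and 3.36% lower. CYP27B1, which activates vitamin D, was lower in every knockout library and averaged 2.23 ± 0.544 CPM in knockout and 4.14 ± 1.33 CPM in wild-type piglets (SD, n = 4 each), for a log2 fold change of -0.89 ± 0.29, and CYP51A1, a demethylase of cholesterol synthesis, had -0.37 ± 0.15. Of 17 further conjugation genes 2 had an unadjusted p under 0.05 (11.8%), both enzymes that make the sulfate donor. PAPSS2 averaged 128 ± 40.6 CPM in knockout and 78.1 ± 9.64 CPM in wild-type piglets (log2 fold change 0.71 ± 0.22), and PAPSS1 ranged over 90.9 to 113 CPM in knockout and 115 to 137 CPM in wild-type piglets (-0.25 ± 0.10). The groups lay apart in PAPSS1, 1 of the 17 (5.88%). ANPEP, an aminopeptidase, reached 40.5 CPM in knockout piglet 18, against 2.60 to 7.43 CPM elsewhere. Of 25 other oxidoreductases 2 had an unadjusted p under 0.05 (8%), both lower in the knockout: AKR1A1, an aldehyde reductase (-0.26 ± 0.10), and HSD17B6, a steroid dehydrogenase (-0.63 ± 0.25), while DHRS4 had -0.38 ± 0.17. Of 18 drug transporters 3 did (16.7%), SLCO4C1, an organic anion carrier (0.56 ± 0.15), SLCO4A1 (-0.50 ± 0.16) and SLCO2A1, the prostaglandin carrier (-0.49 ± 0.20). None of these genes was called over all genes by edgeR or DESeq2, and edgeR adjusted p-values were 0.347 or above.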

How the data were processed

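RNA was sequenced from olfactory epithelium of 4 CFTR-knockout and 4 wild-type newborn piglets, with TruSeq libraries per the labels' protocols. The authors deposited raw counts per gene, in featureCounts layout per the file headers. The submitters' processing notes list, without roles, DESeq2, HTSeq, STAR 2.4.0 and Subread 1.5.0-p3. Genome build and strand setting are not given in the sources used here.

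Only the 25880 pig identifiers were used (at least 99.9982% of reads). Symbols came from a gene name table (14857 identifiers) or, for a further 1642, from position in Sscrofa11.1 RefSeq genes where at least 50% of both spans overlapped; of 12665 known genes with such a match, 94.4% received their own symbol. Counts were fitted with edgeR 4.0.16 (R 4.3.3; TMM, default filter, quasi-likelihood test, Benjamini-Hochberg adjustment at 0.05). Standard errors come from the F statistic. DESeq2 1.42.0 and limma 3.58.1 were alternatives, and the pipeline was tested on simulated data. RPKM is CPM per kilobase of exon. The members and lists were chosen with earlier results of these data known. Named genes were the 12 highest by RPKM, the highest of each family, the 12 of at least 1 CPM with the smallest p, every member whose groups did not overlap, and up to 3 genes of each pathway list; others were named after their values were seen. The values of 1 untested member are not reported here.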

Additional observations from a re-analysis of the deposited data

Results flagged for a closer look

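Within a group of 4 piglets, 1 value stood far from the other 3 in 11 of 156 groups examined (78 genes in 2 genotypes); chance alone flags about 5% of groups. Wild-type piglet 5 gave 5 of these values. It was 146 CPM for FMO1 (100.1 to 106 in the other wild-type piglets), 138 CPM for ALDH1A2 (34.4 to 39.1), 24.9 CPM for CYP2U1 (30.0 to 30.7), 151 CPM for CES1, named by position (216 to 226), and 56.6 CPM for CFTR (34.0 to 36.6). Knockout piglet 18 gave 3, namely 125 CPM for ALDH7A1 (109 to 110.2 in the other knockout piglets), 308 CPM for ARNT (55.8 to 69.4) and 40.5 CPM for ANPEP (2.60 to 4.09). Knockout piglet 6 had 103 CPM for FMO5 (79.8 to 82.1) and 4.53 CPM for CYP2S1 (7.10 to 7.33). Wild-type piglet 12 had 347 CPM for CYP4V2 (259 to 267).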

How the results depend on the processing

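No paired analysis was run, because the labels give no litter or other pairing of knockout with wild-type piglets. The count of enzymes called by edgeR, 0, was 3 with DESeq2 (FMO5, FMO1 and ALDH16A1, adjusted p 0.0129, 0.0252 and 0.0442) and 0 under every other alternative run. Over all genes the count, 1, was 219 with DESeq2, 11 with limma, 2 without knockout piglet 18 and wild-type piglet 5, and 0 to 16 when 1 piglet was left out, the 16 without wild-type piglet 12 and 0 without knockout piglet 6 or 20. The members' median log2 fold change (-0.02) was -0.0678 with limma, -0.0713 with library size alone, -0.0676 without piglets 18 and 5, and -0.0889 to -0.0280 when 1 piglet was left out. Signs turned in some genes under these alternatives. CYP1A2, at -0.39 in the main fit, stayed below 0 whenever 1 piglet was left out (-0.72 to -0.00125) and turned only with the Y-linked covariate. CYP1A2 was 0.24, CYP4V2 0.000402 and MGST3 0.13 with Y-linked reads as a covariate, MGST3 was 0.0381 and ANPEP -0.0237 with limma, and ARNT was -0.13, FOXA1 0.41 and ANPEP -0.32 without piglets 18 and 5. Leaving out 1 piglet gave -0.21 to 0.00552 for CYP4V2, -0.14 to 0.18 for FMO2, -0.10 to 0.0926 for MGST3, -0.16 to 1.08 for ARNT, -1.09 to 0.11 for FOXA1 and -0.55 to 1.65 for ANPEP. The cause was not tested. Over the 16 alternatives, FMO5 stayed at 0.49 to 0.70, FMO1 at -0.80 to -0.56, ALDH3A2 at 0.28 to 0.40, ALDH6A1 at 0.38 to 0.63 and ALDH16A1 at -0.42 to -0.30, and their edgeR adjusted p ranged over 0.108 to 0.762.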
